A study of Homo sapiens with 10 samples.

Results

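The 44 genes described here encode proteins of the neutrophil and eosinophil granules, receptors and other surface proteins of granulocytes, and a few cytosolic or secreted proteins of the same cells. They were taken by symbol from the RNA-Seq table of normalized counts, which holds 19590 genes, and all 44 are in it. They fall into 9 primary granule genes, 5 eosinophil granule genes, 15 secondary and tertiary granule genes, 11 surface genes and 4 cytosolic or secreted genes. RNA was measured in MV4-11 cells, an established line of acute myeloid leukemia (AML), after infection with lentivirus made with the CRISPR/Cas9 vector lentiCRISPRv2 or a control vector. The control group holds 4 libraries of cells infected with the control vector. The IRF8 KO group holds 4 libraries of cells in which the gene of the transcription factor IRF8 was targeted. The KO cells were grown as clones by limiting dilution after puromycin selection, and the sources used here do not say which clone gave which library. They describe no such cloning of the control cells, so differences from cloning and from the loss of IRF8 cannot be told apart. Nothing in the labels says that replicates are separate cultures, so p-values measure only the spread between these libraries, which may be technical.

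Granulocyte granules are filled in the order in which their genes are expressed during maturation. Primary (azurophil) granules, with myeloperoxidase and the serine proteases, are made by promyelocytes, secondary granules with lactoferrin by myelocytes, and tertiary granules with gelatinase by later stages, while most neutrophil surface receptors come last. Eosinophils fill their own granules with cationic ribonucleases, eosinophil peroxidase and major basic protein. IRF8 is known to favour monocyte over granulocyte development. The comparison of IRF8 KO with control asks which granulocyte genes differ between these cloned KO cells and the control cells of a leukemic line.

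Depth, as reads assigned to genes, ran from 39560072 to 65519047 a library (median 52233344). All 10 genes of a list of myeloid leukemia line markers had a mean of at least 100 normalized counts. Of the T cell markers, 5 were in the table and none exceeded 20.3, and MS4A1 and HBB were 0 in every library. Of 17 tested monocyte markers, 4 were called higher and 4 lower in IRF8 KO, where 8.65% and 9.56% of all genes tested were. The summed level of the list of 19 was 18724 to 20935 normalized counts in control and 23166 to 38290 in the KO libraries. The part of such cells or programs in the granule gene results was not tested. The control libraries were not uniform. Replicates 1 and 3 lay entirely above or entirely below replicates 2 and 4 in 81.2% of all genes tested, and in 66.7% of the granulocyte genes tested, so values are given by library. IRF8 itself had 36891, 15192, 43016 and 22535 normalized counts in control replicates 1 to 4, and 6377, 2401, 12903 and 7819.7 in IRF8 KO replicates 1 to 4. The groups did not overlap, and transcript from the locus remained in every KO library. Transcript is not protein, and the paper reports that Western blotting found no IRF8 protein in the KO clones. It also reports no IRF8 at its target genes in KO cells by ChIP-qPCR. The mean IRF8 count was 29408 ± 12786 (SD, n = 4) in control and 7375 ± 4339 in IRF8 KO, with a log2 fold change of -2.11 (SE 0.51, adjusted p = 0.022). Leaving out control replicate 1, control replicate 3 or KO replicate 1 put the adjusted p between 0.053 and 0.058.

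Here and below, values are normalized counts, the reads of a gene divided by the size factor of its library, with the SD over 4 libraries of a group. Genes with a mean of at least 10 over the 8 libraries were compared with limma on log2(normalized count + 1), a scale that understates the change of low genes. A gene was called at a Benjamini-Hochberg adjusted p below 0.05 over all 13110 genes tested. Levels are compared between groups and not between genes, since a count grows with the length of the transcript. The libraries are bulk RNA, so more cells with a transcript and more transcript per cell cannot be told apart.

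Of the genes of the primary granule, the earliest made, LYZ, PRTN3, CTSG, ELANE, AZU1 and MPO had between 8974 and 248604 normalized counts in every KO library. In the control libraries these genes had between 712 and 19382. BPI, DEFA3 and DEFA4 were lower, at no more than 218 in any KO library. Most secondary and tertiary granule genes and most surface genes were hardly detected in either group. Of the 44 genes, 2 were 0 in every library, 18 had a mean below 10, and 24 were tested. Of the 24, 17 were called higher in IRF8 KO, 1 was called lower, and 6 were not called, where 8.65% of all genes tested were called higher and 9.56% lower. Only members with enough reads entered the test, and 5 of the 17 (HP, TCN1, SLPI, FPR1 and FPR2) passed the minimum through the KO group alone. Of the 18 members with a mean of at least 10 in both groups, 12 were called higher, 1 lower and 5 were not called. The median log2 fold change of the 24 was 2.54, against -0.00094 over all genes tested. A log2 fold change of at least 2 was found in 13 members and in 2.33% of all genes tested. HP, SLPI, FPR1 and FPR2 are among these 13, and they and TCN1 enter the median. Since these genes were tested only through their KO values, a rise was built into both figures for them. The 2 groups did not overlap in any called member, 17 higher and 1 lower, where 12.3% of all genes tested did so upward and 13.0% downward. HP, TCN1, SLPI, FPR1 and FPR2 are among these 17, so a rise was built into this count for them too. The authors used a p below 0.01 and at least 2-fold, with p-values from DESeq2. With these cut-offs applied to the unadjusted limma p, also 17 members were higher and 1 lower, where 4.78% and 6.12% of all genes tested were. The same 5 genes that passed through the KO group alone are among these 17. Each of the 18 had an exact two-sided permutation p of 0.029, the smallest that 4 libraries against 4 allow. This value follows from the groups not overlapping and adds nothing to it.

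**Figure D1:**
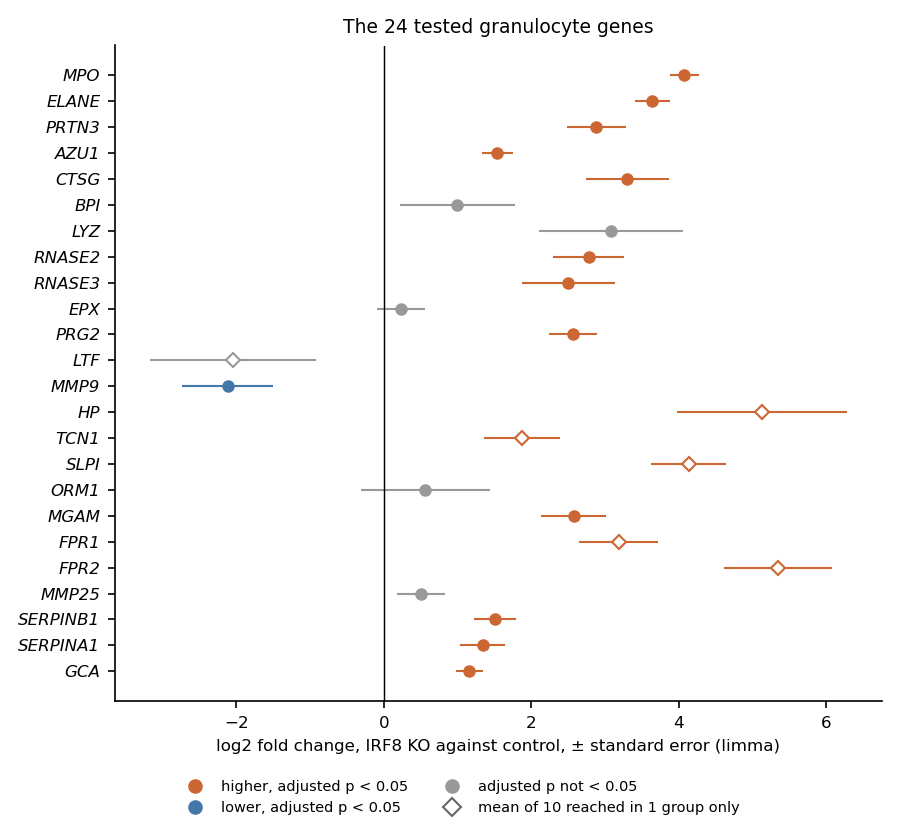
Log2 fold change (IRF8 KO against control, on log2(normalized count + 1)) of the 24 tested genes with bars of 1 standard error, orange for genes called higher, blue for lower and grey for not called, and open diamonds for genes with a mean of 10 in 1 group only. The 17 genes called higher run from 1.16 for GCA to 5.35 for FPR2, and MMP9 at -2.12 is the one gene called lower.

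The promoters of called genes are shown because factors of the C/EBP family and PU.1 are known to act at promoters of granule genes. RefSeq sequence (GRCh38.p14) was found for 12 of the 17 genes called higher, and not for MPO, ELANE, PRG2, HP and SLPI. Printed are the 250 bases before the annotated start, in the direction of transcription, for 3 primary granule genes and for the 2 eosinophil ribonucleases. These are AZU1 at chr19:827587-827836 on the plus strand, PRTN3 at chr19:840749-840998 on the plus strand, CTSG at chr14:24576251-24576500 on the minus strand, RNASE2 at chr14:20955237-20955486 on the plus strand and RNASE3 at chr14:20891135-20891384 on the plus strand. Capitals mark matches to the C/EBP pattern TTNNGNAA on either strand and to the PU.1 pattern GAGGAAGT on either strand.
AZU1: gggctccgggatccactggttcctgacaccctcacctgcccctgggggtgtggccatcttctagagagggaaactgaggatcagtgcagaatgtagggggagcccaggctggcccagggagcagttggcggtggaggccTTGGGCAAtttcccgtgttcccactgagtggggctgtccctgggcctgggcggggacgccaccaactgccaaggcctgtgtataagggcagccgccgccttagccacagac
PRTN3: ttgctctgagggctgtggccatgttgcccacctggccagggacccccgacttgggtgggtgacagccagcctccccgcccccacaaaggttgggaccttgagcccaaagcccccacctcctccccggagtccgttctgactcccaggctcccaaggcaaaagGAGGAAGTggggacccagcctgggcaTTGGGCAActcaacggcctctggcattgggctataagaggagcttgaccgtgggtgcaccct
CTSG: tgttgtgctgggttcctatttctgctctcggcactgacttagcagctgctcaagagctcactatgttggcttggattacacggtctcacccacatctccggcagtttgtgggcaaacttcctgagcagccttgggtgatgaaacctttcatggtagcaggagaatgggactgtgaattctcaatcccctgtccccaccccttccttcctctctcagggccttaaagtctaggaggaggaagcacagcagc
RNASE2: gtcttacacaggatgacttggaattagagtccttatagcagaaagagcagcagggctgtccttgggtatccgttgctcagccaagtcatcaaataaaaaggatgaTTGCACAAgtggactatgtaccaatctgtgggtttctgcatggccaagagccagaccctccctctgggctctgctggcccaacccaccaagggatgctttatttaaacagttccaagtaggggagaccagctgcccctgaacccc
RNASE3: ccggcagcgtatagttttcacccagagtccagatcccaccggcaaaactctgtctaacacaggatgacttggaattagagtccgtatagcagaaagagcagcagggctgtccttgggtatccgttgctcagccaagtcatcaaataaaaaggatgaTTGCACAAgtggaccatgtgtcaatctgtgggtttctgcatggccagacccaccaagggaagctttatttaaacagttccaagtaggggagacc
PRTN3 has both, the C/EBP pattern 62 and the PU.1 pattern 88 bases before its start. AZU1 has the C/EBP pattern 111 bases before its start, with the same letters as in PRTN3. In RNASE2 and RNASE3 it lies 145 and 94 bases before the start in a shared stretch, since 193 of 199 aligned bases (97.0%) of the 2 windows are identical. The printed window of CTSG has neither pattern.

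Over the 12 windows, TTNNGNAA was found in 8 (PRTN3, AZU1, RNASE2, RNASE3, TCN1, MGAM, FPR1 and FPR2), where 33.2% of all 34943 RefSeq promoter windows of this length hold it. GAGGAAGT was found only in PRTN3, and in 2.17% of all windows. Its core GGAA, which overlaps it, was in all 12 and in 92.7% of all windows. The composite of an ETS and an IRF site, GGAA followed 2 bases later by GAAA, was in 0 of the 12 and in 2.41% of all windows. The interferon response pattern, GAAA followed 2 bases later by GAAA, was in GCA alone of the 12 and in 3.02% of all windows. CNGTTA (MYB) was in FPR2 alone and TGTGGT (RUNX) in TCN1 alone, with 17.7% and 11.0% of all windows. A match here describes letters, and no binding was measured at it.

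Of the 9 primary granule genes, 7 were tested and 5 were called higher (MPO, ELANE, PRTN3, AZU1 and CTSG), with none lower, where 8.65% and 9.56% of all genes tested were. The genes not called were LYZ and BPI, and the defensin genes DEFA3 and DEFA4 were too low to test. The median log2 fold change of the 7 was 3.09, and all 7 had a mean of at least 10 in both groups. Reads of the 9 genes took 0.0677% to 0.0926% of all gene reads in the control libraries and 0.289% to 1.07% in the KO libraries. Without LYZ, the shares were 0.0625% to 0.0644% in control and 0.262% to 0.604% in IRF8 KO.

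MPO, the peroxidase that makes hypochlorous acid, had 804, 712, 729 and 823 normalized counts in control replicates 1 to 4, and 18443, 13260.1, 8974 and 12834 in KO replicates 1 to 4. The control libraries were nearly level, and the lowest KO library was far above them. Its mean rose from 767 ± 54.6 to 13378 ± 3888, or 17.4-fold (log2 fold change 4.08, SE 0.20, limma adjusted p = 9.9e-06). MPO was at place 58 of the 13110 tested genes by log2 fold change. ELANE, neutrophil elastase, had 2922, 2865, 2839 and 2843 in control and 58196, 24555, 36883 and 31207 in IRF8 KO. The control values again hardly varied, while the KO values spread over a wider range with replicate 1 the highest and replicate 2 the lowest. The rise was 13.2-fold, from 2867 ± 38.2 to 37710.1 ± 14557 (log2 fold change 3.64, SE 0.23, adjusted p = 4.1e-05).

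PRTN3, proteinase 3, had 18873, 8329, 19382 and 9039 in the 4 control and 146993, 50652, 124108 and 88227 in the 4 KO libraries. Control replicates 1 and 3 were above replicates 2 and 4, and in IRF8 KO the same replicate numbers were the highest. Its mean rose 7.37-fold, from 13906 ± 6040.1 to 102495 ± 42184 (log2 fold change 2.88, SE 0.40, adjusted p = 0.0017). AZU1, azurocidin, a granule protein of the serine protease family without protease activity, had 8061, 9651, 8769 and 8699 in control and 30288, 16071, 32282 and 27049.7 in IRF8 KO. KO replicate 2 was again the lowest of its group and still above every control. The rise was 3.004-fold, from 8795 ± 653 to 26423 ± 7230.1 (log2 fold change 1.54, SE 0.21, adjusted p = 0.0017).

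CTSG, cathepsin G, had 2266, 9119.9, 2012 and 9591 in control and 70121, 31005, 34320.5 and 50524 in IRF8 KO. Here control replicates 2 and 4 were the high ones, opposite to PRTN3, and all 4 KO libraries lay above them. Its mean rose 8.09-fold, from 5747 ± 4172 to 46493 ± 17913 (log2 fold change 3.30, SE 0.56, adjusted p = 0.0046). LYZ, lysozyme, which is made by monocytes as well as by neutrophils, had 12725, 1734, 14757 and 2629.7 in control and 248604, 13767, 39385 and 32984 in IRF8 KO. The groups overlapped, since KO replicate 2 was below control replicate 3, and KO replicate 1 was far above all others. LYZ was not called, with a log2 fold change of 3.09 (SE 0.98, adjusted p = 0.060). In the fit blocked by replicate number, the adjusted p of LYZ was 0.0021, and without KO replicate 2 it was 0.037.

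BPI, the bactericidal/permeability-increasing protein, had 10.5 to 35.8 normalized counts in control and 20.3 to 218 in IRF8 KO, where 3 of the 4 libraries were below 23. Its log2 fold change was 1.00 (SE 0.78, adjusted p = 0.43), and 0.17 without KO replicate 1. The defensin gene DEFA4 had 3 reads over all KO libraries and 0 over all control libraries, and DEFA3 had 1 and 0. The single DEFA3 value recurred at its copies DEFA1 and DEFA1B in the same library. Neither defensin gene exceeded 3.20 normalized counts in any library, and all 3 reads of DEFA4 were in KO replicate 1.

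**Figure D2:**
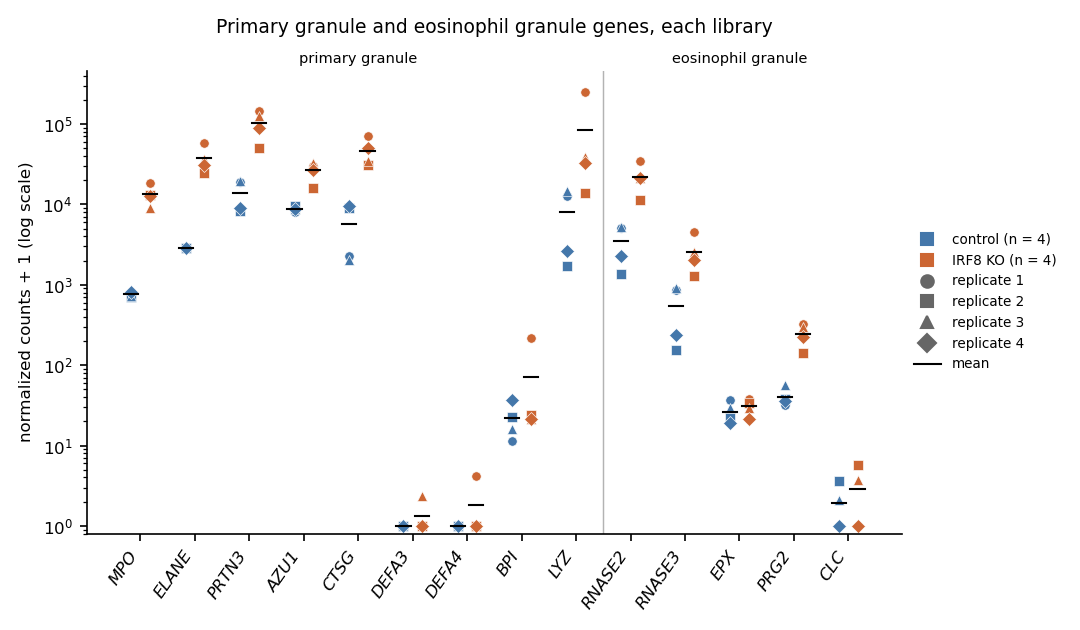
Normalized counts + 1 (log axis) of the 9 primary granule and 5 eosinophil granule genes in the 4 control (blue) and 4 IRF8 KO (orange) libraries, with 1 marker shape for each replicate number and a black bar at the group mean. MPO and ELANE have tight control values (712 to 823 and 2839 to 2922 normalized counts), LYZ, RNASE2 and RNASE3 spread among the controls, and DEFA3, DEFA4 and CLC lie near 0 throughout.

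The eosinophil granule genes gave a mixed picture, with both ribonucleases and major basic protein higher and eosinophil peroxidase not. Of the 5 genes, 4 were tested and 3 were called higher, where 8.65% of all genes were. Their reads took 0.00329% to 0.0118% of all gene reads in control and 0.0250% to 0.0731% in IRF8 KO. RNASE2, the eosinophil-derived neurotoxin, had 5057, 1361, 5176 and 2246 in control and 34415, 11461, 21198 and 21249 in IRF8 KO. The lowest KO library, replicate 2, had more than every control. The rise was 6.38-fold, from 3459.9 ± 1947 to 22081 ± 9423 (log2 fold change 2.78, SE 0.48, adjusted p = 0.0049).

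RNASE3, the eosinophil cationic protein, had 857, 154, 902 and 238 in control and 4475, 1281, 2554 and 2026 in IRF8 KO. Its controls split like those of RNASE2, with replicates 1 and 3 above replicates 2 and 4. Its mean rose 4.81-fold, from 538 ± 397 to 2584 ± 1365 (log2 fold change 2.50, SE 0.63, adjusted p = 0.025). The call was lost, with an adjusted p between 0.055 and 0.068, when control replicate 4 or KO replicate 1, 3 or 4 was left out. RNASE2 and RNASE3 are neighbours on chromosome 14 with near-identical sequence before their starts, and the likeness of their transcripts was not measured here. The sources used here do not say how reads matching both were counted, so their separate values are uncertain.

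PRG2, the eosinophil major basic protein, had 30.6, 37.1, 55.8 and 34.8 in control and 322, 139, 297 and 225 in IRF8 KO. All KO values were above all controls. The rise was 6.20-fold, from 39.6 ± 11.2 to 246 ± 82.2 (log2 fold change 2.57, SE 0.32, adjusted p = 0.001). EPX, eosinophil peroxidase, had 17.9 to 35.4 in control and 20.7 to 37.3 in IRF8 KO, with a log2 fold change of 0.23 (SE 0.33, adjusted p = 0.69). CLC, the Charcot-Leyden crystal protein, was too low to test, with 4 reads over the controls and 7 over the KO libraries. IL5RA, the eosinophil receptor for interleukin 5, was 0 in every control library and did not exceed 1.97 in IRF8 KO.

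Among the 15 secondary and tertiary granule genes, LTF, LCN2, CAMP and MMP8 of the secondary granule were absent or low in both groups, and the genes that changed did so in both directions. OLFM4 was 0 in every library, 8 genes had a mean below 10, and 6 were tested. HP, TCN1 and SLPI were called higher and MMP9 was called lower, where 8.65% and 9.56% of all genes were, and LTF and ORM1 were not called. All 3 genes called higher passed the minimum through the KO group alone. The reads of the group took 0.00258% to 0.00619% of all gene reads in control and 0.00165% to 0.00337% in IRF8 KO, so these ranges overlapped.

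LTF, lactoferrin, the defining protein of the secondary granule, had 3.22, 56.1, 3.22 and 23.5 in control and 0, 17.2, 1.35 and 0.984 in IRF8 KO. The highest values were those of control replicates 2 and 4 and KO replicate 2, and the groups overlapped. LTF was not called (log2 fold change -2.05, SE 1.13, adjusted p = 0.25), and with the replicate block its adjusted p was 0.033. LCN2 (lipocalin 2) had 0 reads over the control and 1 over the KO libraries. CAMP (cathelicidin) had 59 and 16 reads, most of them in control replicates 2 and 4. MMP8 (collagenase) had 9 and 0 reads, and CRISP3 had 0 and 1.

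MMP9, gelatinase B of the tertiary granule, had 1301, 1210.2, 1657 and 2772 in control and 98.0, 895, 473 and 481 in IRF8 KO. Every KO library was below every control, and KO replicate 1, the highest for many primary granule genes, was here the lowest. Its mean fell from 1735 ± 718 to 487 ± 325 (log2 fold change -2.12, SE 0.61, adjusted p = 0.043). The call was near the threshold, with an adjusted p of 0.057 in edgeR on recovered reads and between 0.060 and 0.11 when control replicate 1, 2, 3 or 4 or KO replicate 3 or 4 was left out. Without KO replicate 1 the log2 fold change was -1.48.

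HP, haptoglobin, had 16.1, 0.863, 16.1 and 3.77 in control and 1516, 43.0, 501 and 117 in IRF8 KO. The controls were within a few reads of 0 in replicates 2 and 4, and the KO values differed widely among themselves. The mean rose from 9.21 ± 8.05 to 544 ± 678 (log2 fold change 5.14, SE 1.15, adjusted p = 0.016), and by log2 fold change HP was at place 24 of 13110. The log2 fold change was 4.27 without KO replicate 1, 4.49 without control replicate 2 and 5.97 without KO replicate 2, and without KO replicate 3 the adjusted p was 0.0503. HPR, its adjacent copy on chromosome 16, had 4.83, 0.863, 3.22 and 1.88 in control and 522, 7.65, 176 and 45.3 in IRF8 KO, in the same order of KO libraries. How reads matching both genes were counted is not stated in the sources used here, so the separate values of HP and HPR are uncertain.

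SLPI, the secretory leukocyte peptidase inhibitor, which blocks elastase and cathepsin G, had 4.02, 1.73, 2.15 and 0.942 in control and 92.7, 22.0, 60.9 and 59.0 in IRF8 KO. It was at no more than 5 reads in each control library and detected in all KO libraries (log2 fold change 4.14, SE 0.51, adjusted p = 9.0e-04). TCN1, the vitamin B12 carrier transcobalamin 1, had 2.41, 2.59, 8.59 and 9.42 in control and 21.3, 15.3, 14.9 and 37.4 in IRF8 KO. The groups were apart but close. The rise from 5.75 ± 3.77 to 22.2 ± 10.5 (log2 fold change 1.88, SE 0.52, adjusted p = 0.037) lost its call, with an adjusted p between 0.058 and 0.10, without control replicate 1 or 2 or KO replicate 1, 3 or 4.

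ORM1, orosomucoid, had 12.9 to 182 in control and 55.4 to 129 in IRF8 KO, so the KO values lay within the control range. Control replicates 1 and 3 averaged 16.1 and replicates 2 and 4 averaged 179, and the log2 fold change of 0.56 (SE 0.88, adjusted p = 0.73) turned to -0.22 in edgeR and to -0.10 without control replicate 1. Its copy ORM2 followed the same split, with 7.24, 91.4, 10.7 and 94.2 in control and 28.8 to 60.01 in IRF8 KO. The remaining low genes of the group, CHIT1, PGLYRP1, ARG1 and QPCT, had 21, 45, 8 and 0 reads over the controls and 29, 32, 9 and 3 over the KO libraries.

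**Figure D3:**
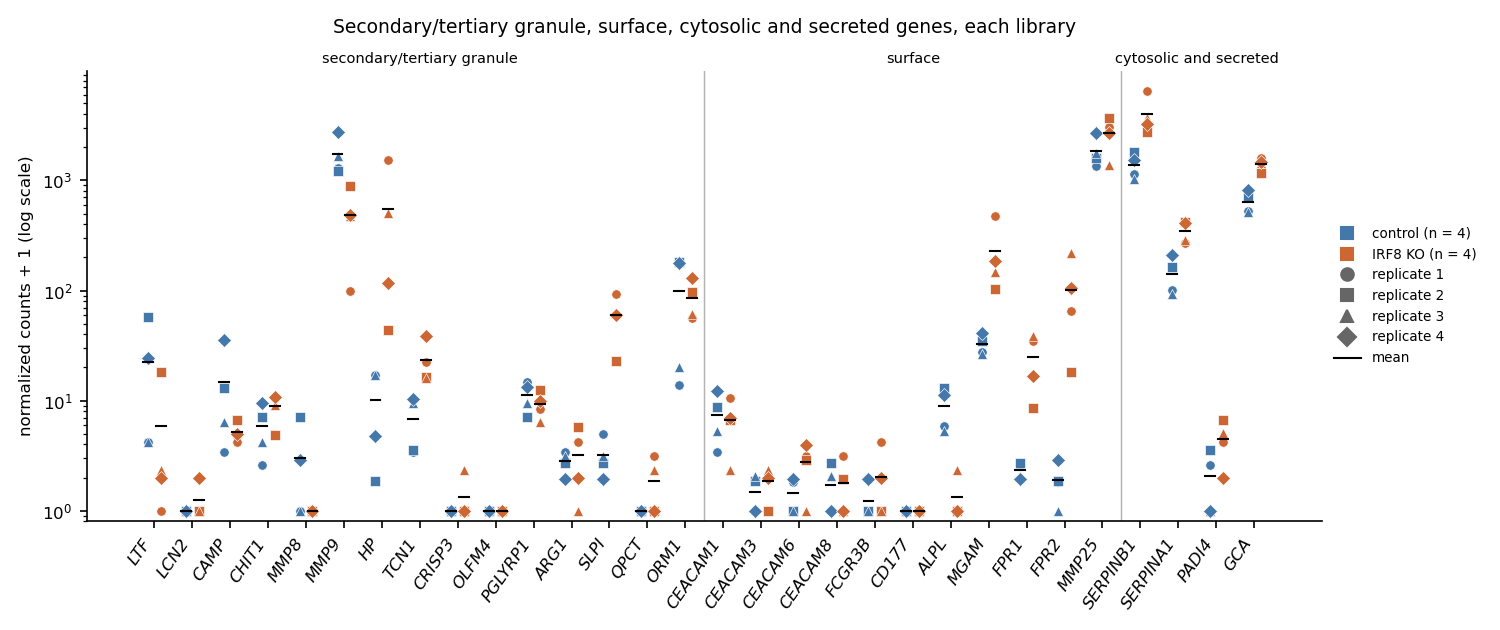
Normalized counts + 1 (log axis) of the 15 secondary and tertiary granule, 11 surface, and 4 cytosolic or secreted genes in the 4 control (blue) and 4 IRF8 KO (orange) libraries, with 1 marker shape for each replicate number and a black bar at the group mean. MMP9 lies lower in every KO library (98.0 to 895 against 1210.2 to 2772 normalized counts), HP, SLPI, FPR1 and FPR2 do not exceed 16.1 in any control library, and many genes lie near 0 in both groups.

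Of the 11 surface genes, both formyl peptide receptors and MGAM were higher in IRF8 KO, and most of the others were not detected above a few reads. CD177 was 0 in every library, 6 genes had a mean below 10, and 4 were tested, of which 3 were called higher, where 8.65% of all genes were. FPR2 and FPR1 passed the minimum through the KO group alone. FPR2, a receptor for formylated and other chemotactic peptides, had 0.804, 0.863, 0 and 1.88 in control and 63.9, 17.2, 218 and 103 in IRF8 KO. It was at 0 to 2 reads in each control library and clearly present in each KO library. Its log2 fold change of 5.35 (SE 0.73, adjusted p = 0.0016) was the highest of the 24 genes, at place 19 of 13110, but depended on the pseudocount, with 5.89 at 0.5 and 3.74 at 5, and was 6.01 without KO replicate 2.

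FPR1, the high-affinity receptor for bacterial formyl peptides, had 1.61, 1.73, 1.07 and 0.942 in control and 34.1, 7.65, 37.9 and 15.7 in IRF8 KO. All 4 KO libraries were above the controls, and KO replicate 2 was the lowest (log2 fold change 3.19, SE 0.54, adjusted p = 0.0042). The third receptor of the family, FPR3, did not exceed 4.26 in any library. MGAM, the maltase-glucoamylase, had 26.5, 33.6, 25.8 and 40.5 in control and 469.9, 103, 146 and 185 in IRF8 KO. No KO library overlapped the controls, and replicate 1 was the highest. The rise was 7.15-fold, from 31.6 ± 6.89 to 226 ± 166 (log2 fold change 2.58, SE 0.44, adjusted p = 0.0048).

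MMP25, a membrane-bound matrix metalloproteinase of leukocytes, had 1359, 1588, 1789 and 2713 in control and 3071, 3699, 1379 and 2705 in IRF8 KO. It was well detected in both groups, which overlapped. It was not called (log2 fold change 0.50, SE 0.32, adjusted p = 0.33). The adhesion molecules CEACAM1, CEACAM3, CEACAM6 and CEACAM8, of which CEACAM8 is a marker of the secondary granule, had 28, 2, 2 and 3 reads over the controls and 22, 3, 7 and 3 over the KO libraries. FCGR3B, the neutrophil Fc receptor CD16b, had 1 and 4 reads, and its copy FCGR3A had reads in KO replicate 1 only.

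ALPL, the alkaline phosphatase used as a marker of mature neutrophils, had 4.83, 12.1, 4.30 and 10.4 normalized counts in control and 0, 0, 1.35 and 0 in IRF8 KO, or 35 reads against 1. It was too low for the main test. When all 17393 genes with a read were fitted, ALPL was the one member of the 18 below 10 that was called, with a log2 fold change of -2.73 (SE 0.45, adjusted p = 0.0038).

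The 3 tested cytosolic or secreted genes were all called higher, by 2.21-fold to 2.93-fold, where 8.65% of all genes were called higher. All 3 had a mean of at least 10 in both groups. SERPINB1, the cytosolic inhibitor of elastase, proteinase 3 and cathepsin G, had 1139, 1799, 1036 and 1529 in control and 6423, 2755, 3699.6 and 3276 in IRF8 KO. The groups did not overlap. The rise was 2.93-fold, from 1376 ± 353 to 4038 ± 1636 (log2 fold change 1.51, SE 0.28, adjusted p = 0.0067).

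SERPINA1, alpha-1-antitrypsin, the secreted inhibitor of elastase, had 101, 163, 92.4 and 208 in control and 272, 419.6, 286 and 405 in IRF8 KO. In both groups replicates 2 and 4 were above replicates 1 and 3. The rise was 2.45-fold, from 141 ± 54.7 to 346 ± 77.6 (log2 fold change 1.34, SE 0.30, adjusted p = 0.017), with an adjusted p of 0.051 without KO replicate 4. GCA, the calcium-binding protein grancalcin, had 521, 720.2, 519 and 809 in control and 1607, 1159, 1438 and 1479 in IRF8 KO. The KO values were close together and above all controls. The rise was 2.21-fold, from 642 ± 146 to 1421 ± 189 (log2 fold change 1.16, SE 0.19, adjusted p = 0.0035). PADI4, the enzyme that citrullinates histones in neutrophils, had 5 reads over the controls and 13 over the KO libraries and was not tested.

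The KO libraries differed among themselves in the same way for most of the 17 genes called higher. Replicate 1 was the highest KO library for 12 of the 17 (70.6%) and replicate 2 the lowest for 14 (82.4%). Over all 1134 genes called higher, the shares were 41.4% and 48.5%. Since the groups do not overlap in these 17 genes, all their differences within replicate numbers are above 0, and they ranged from 0.61 to 7.77 on the log2 scale. KO replicate 2, the lowest for most of these genes, also had the lowest IRF8 count (2401). Among the controls, replicates 1 and 3 were both above replicates 2 and 4 in 7 tested genes (PRTN3, LYZ, RNASE2, RNASE3, EPX, HP and SLPI) and both below in 9 (CTSG, BPI, LTF, ORM1, MGAM, FPR2, SERPINB1, SERPINA1 and GCA). MPO, ELANE and AZU1 were among the 8 with no such split, so genes of 1 granule did not share 1 pattern among the controls.

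**Figure D4:**
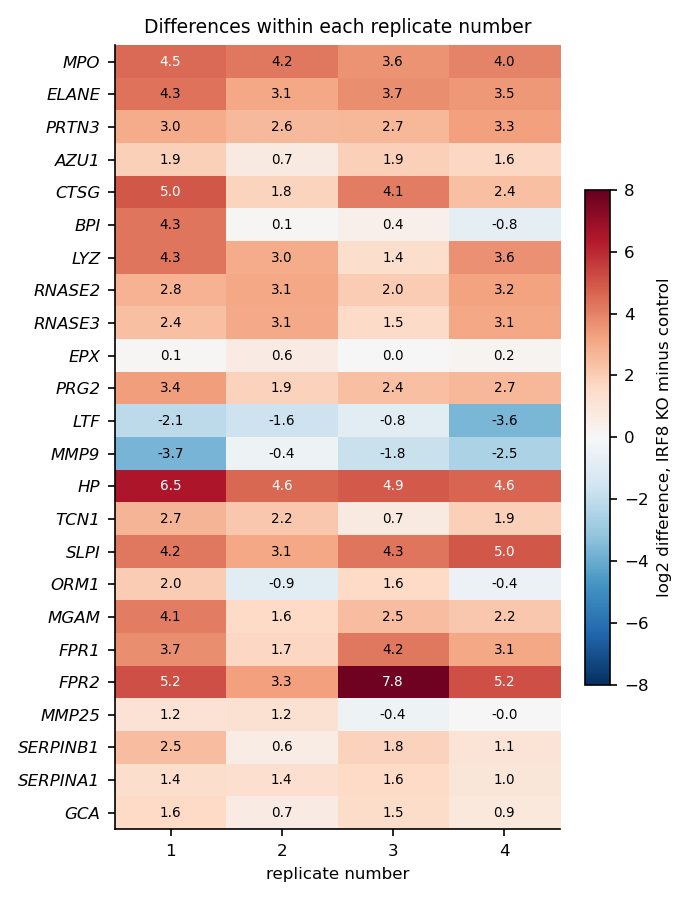
Heat map of the difference in log2(normalized count + 1) between the IRF8 KO and the control library of the same replicate number (columns 1 to 4) for the 24 tested genes, red for higher and blue for lower in IRF8 KO, with the value in each cell. The 17 genes called higher, whose groups do not overlap, have differences from 0.61 to 7.77, and those of MMP9 are below 0.

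Several of the called genes lie next to each other, and not all of their neighbours moved with them. AZU1, PRTN3 and ELANE are adjacent on chromosome 19, between PLPPR3 and CFD, which encodes complement factor D, another serine protease of the same family. CFD rose from 5367 ± 409.7 to 19704 ± 3368 (log2 fold change 1.86, SE 0.14, adjusted p = 9.2e-05), and PLPPR3 from 10957 ± 2471 to 26819 ± 13703 (1.19, SE 0.34, adjusted p = 0.041). LPO, the lactoperoxidase gene beside MPO, was not called (1.03, SE 0.91, adjusted p = 0.49), nor were TSPOAP1 on its other side and METTL17 beside RNASE2. Of 28 RefSeq neighbours of the 18 called genes, 15 were tested, of which 4 were called higher (PLPPR3, CFD, HPR and MGAM2), 1 lower (ZNF335, beside MMP9 on chromosome 20) and 10 not, where 8.65% and 9.56% of all genes were called higher and lower. HPR passed the minimum through the KO group alone, so a rise was built into its test, and its value apart from HP is uncertain.

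BPI, MMP9 and SLPI, like ZNF335, are on chromosome 20, where 214 of 351 tested genes were called lower and 5 higher (median -0.92 on the log2 scale). Relative to the median of the chromosome in the same library, SLPI was higher in IRF8 KO by 5.04 (exact permutation p = 0.029, adjusted over the 3 genes 0.043). SLPI entered this comparison only through its KO values, so a rise was built into it. BPI was higher by 1.90 (exact permutation p = 0.029, adjusted 0.043), with an exact permutation p between 0.057 and 0.11 without control replicate 1, 2 or 3 or KO replicate 1, and a difference of 1.09 without the last of these. The difference of MMP9 on this relative scale was -1.22, with overlapping groups (exact permutation p = 0.086, adjusted 0.086). What part the lower level of chromosome 20 had in the MMP9 value was not tested.

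Of a list of 31 genes for proteins that process, pack and release granule contents, 30 were tested, of which 10 were called higher, 0 lower and 20 not, where 8.65% and 9.56% of all genes were. The median log2 fold change of the 30 was 0.32. SRGN, serglycin, the proteoglycan that holds proteases in the granule, had 39675, 29235, 35967 and 30838 in control and 487367, 85175, 216513 and 180165 in IRF8 KO. KO replicate 1 was the highest and replicate 2 the lowest, as for ELANE, PRTN3 and CTSG. Its mean rose from 33929 ± 4787 to 242305 ± 172503 (log2 fold change 2.57, SE 0.44, adjusted p = 0.0048). CTSC, which activates the granule serine proteases by cleavage, rose from 14899.8 ± 1129 to 28113 ± 4005 (log2 fold change 0.91, adjusted p = 0.0022). CST7, cystatin F, an inhibitor of CTSC encoded on chromosome 20, rose from 1669.8 ± 1202 to 5423 ± 2246 (1.94, adjusted p = 0.046), and its call was lost, with an adjusted p of up to 0.12, without control replicate 1 or 3 or any 1 KO library.

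The granule membrane proteins CD63 and CD68 rose by 0.78 and 1.83 on the log2 scale (adjusted p = 0.0035 and 2.4e-04). LAMP1 and NPC2 of lysosomes rose by 1.08 and 1.19 (adjusted p = 0.0051 and 0.0034), and AP3B1, of the adaptor that sorts cargo to granules, by 0.71 (adjusted p = 0.0042). RAB27A, a GTPase of granule exocytosis, rose from 4618 ± 352 to 12936 ± 2345 (1.47, adjusted p = 4.1e-04), and the membrane fusion protein STX11 by 1.78 (adjusted p = 0.0049). LYST, UNC13D, STXBP2 and VAMP8, which also serve granule formation or release, were not called, with log2 fold changes of -0.16, -0.03, 0.47 and 0.31. RAB27B, the paralogue of RAB27A, had 47.5, 4.31, 41.9 and 19.8 in control and 2.13, 3.82, 8.13 and 0.984 in IRF8 KO. The groups overlapped, and it was not called (log2 fold change -2.43, SE 0.78, adjusted p = 0.062). The adjusted p of RAB27B was 0.038 in edgeR, 0.0085 in DESeq2, 0.032 with the replicate block and 0.013 without control replicate 2.

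Of 13 transcription factors of granulocyte development, 4 were called higher and 0 lower, where 8.65% and 9.56% of all genes were. CEBPE, C/EBP epsilon, known to be needed for secondary granule genes and for eosinophil maturation, had 53.1, 35.4, 54.8 and 33.0 in control and 3524, 1056, 4479.6 and 1118 in IRF8 KO. Every KO library was far above every control, with replicates 1 and 3 the highest in both groups. The mean rose from 44.05 ± 11.5 to 2544 ± 1728 (log2 fold change 5.56, SE 0.49, adjusted p = 2.2e-04). CEBPD rose from 807 ± 127 to 4239.5 ± 1665 (2.30, adjusted p = 0.0017), KLF5 from 64.3 ± 21.6 to 322 ± 71.9 (2.34, adjusted p = 8.2e-04) and GFI1, a repressor needed for neutrophil production, from 6092 ± 624 to 8969.7 ± 1614 (0.55, adjusted p = 0.032), whose call was lost, with an adjusted p of up to 0.087, without control replicate 1, 3 or 4 or KO replicate 1 or 4. CEBPA, needed for the first granulocyte precursors, and SPI1, which encodes PU.1, were well detected and not called (log2 fold change 0.19, SE 0.23, adjusted p = 0.64, and 0.29, SE 0.21, adjusted p = 0.4).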

How the data were processed

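RNA-Seq of MV4-11 cells infected with control vector (4 libraries) and of IRF8 KO cells (4 libraries) was used. The 2 IRF8 ChIP-Seq samples were not analysed here. According to the methods, reads were aligned with RNA-STAR, counted per gene with featureCounts and normalized with DESeq2. The processing notes of the submitters list hg19 and hg38 without saying which served for RNA-Seq. The deposited values are a signal per gene and library, made by the authors by dividing read counts by 1 size factor per library. The low values of each library were whole multiples of the value of 1 read, and 100% of all values gave whole reads within 0.01 reads. A second deposited table holds the comparison of the authors (fold changes and p-values) and was not used. Columns named as wild type with a replicate number were taken as the control libraries of that number. 0 columns were left out.

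Depth was 48762519 to 65519047 reads on genes in control and 39560072 to 54048461 in IRF8 KO, so a value near 10 rests on about as many reads, and counting error is then large.

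The groups were compared with limma 3.58.1 in R 4.3.3 (trended, robust prior variance) on log2(normalized count + 1) over 13110 genes (mean of at least 10), with Benjamini-Hochberg adjustment and a threshold of 0.05. Exact two-sided permutation tests compared single values. Alternatives covered pseudocounts of 0.5 and 5, no filter and a minimum of 100, other scalings, library weights, no variance trend, 2 count models on the whole reads (edgeR 4.0.16, DESeq2 1.42.0), a block for the replicate number, the thresholds of the study (p below 0.01, at least 2-fold), and leaving out each library. The scripts were tested on simulated data. The deviations of same-numbered control and KO libraries from their group means correlated at 0.37 to 0.50 over genes in all 4 pairs, and the number was used as a block in an alternative. Control replicate 1 correlated with KO replicate 3 at 0.47, above its own number, and the other pairs within replicates 1 and 3 or within 2 and 4 lay between 0.40 and 0.41, so these values do not tell a pairing by number from a split of replicates 1 and 3 against 2 and 4. The labels do not say what a number marks. No 2 libraries of a group agreed within sampling noise.

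All 44 genes are named, with values in every library for those called or with a mean of at least 100. From other lists, genes were named when called at 2-fold or more, and in the granule processing and transcription factor lists by role. IRF8, chromosomal neighbours and marker genes used as checks were named too. Near copies (HPR, ORM2, FCGR3A, FPR3, DEFA1 and DEFA1B) and the values by library of LTF and ALPL were added after the values were seen. The members, lists and comparisons were chosen with earlier results of these data known. Promoter sequence and gene order came from RefSeq (GRCh38.p14), and positions refer to that build.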

Additional observations from a re-analysis of the deposited data

Results flagged for a closer look

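In 3 of the 50 groups of 4 values checked (the tested members, and IRF8, in each group), 1 library lay far from the other 3, with a gap to the nearest that was above the 95% critical value of Dixon's test for 4 values. Chance alone would give this in about 1 of 20 groups. BPI had 218 normalized counts in IRF8 KO replicate 1, where the nearest KO library had 22.9. LYZ had 248604 in the same library, where the nearest had 39385. LTF had 17.2 in IRF8 KO replicate 2, where the nearest had 1.35. Neither gene with a high value in replicate 1 was called, and why this library stands apart in both was not tested.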

How the results depend on the processing

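For the 24 tested genes, 448 values under other settings were computed, of which 422 kept their direction and side of the threshold, 19 lost and 4 gained a call, and 3 turned their direction. In 16 of the 24 genes no setting changed the call or direction. The reversals were all of ORM1, which was never called (-0.22 in edgeR, -0.20 in DESeq2, -0.10 without control replicate 1, and up to 1.14 without another library). The replicate block raised the genes called from 2387 to 3769 (1857 higher, 1912 lower) and the members called lower from 1 (MMP9) to 2, and changed no other member's call than those of LYZ and LTF. The thresholds of the study, applied to the unadjusted limma p, gave 1429 genes (627 higher, 802 lower). The authors used DESeq2, so this is not their count. Members called lower were 2 without the filter, 0 without the variance trend and 0 in edgeR (adjusted p of MMP9 0.056 and 0.057). With 1 library left out, 1665 to 2442 genes were called, 755 (without control replicate 1) to 1164 higher and 910 to 1278 lower. Of the members, 14 to 19 were then called, 14 to 18 higher and 0 to 1 lower, and the log2 fold change of IRF8 lay between -2.46 and -1.65. Relative to chromosome 20, it lay between 1.09 and 2.20 for BPI, between -1.63 and -0.56 for MMP9 and between 4.79 and 5.44 for SLPI. Within the replicate block these differences were 1.90 for BPI and 5.04 for SLPI, each with an exact permutation p of 0.125, the smallest that 4 pairs allow. The causes of these changes were not tested. At these depths, genes below 10 normalized counts rest on a few reads, and of the 18 such members a difference was detectable in ALPL alone.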

Other observations

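Markers of monocytes, the other cell type that myeloid precursors can form, went in both directions. Of 19 genes, 17 were tested, of which 4 were called higher in IRF8 KO (ITGAM, FCGR1A, CTSS and MNDA), 4 lower (VCAN, CCR2, CD36 and VNN2) and 9 were not called, where 8.65% and 9.56% of all genes were called higher and lower. VCAN and CD36 passed the minimum through the control group alone, so a fall was built into their test. Of the 12 markers with a mean of at least 10 in both groups, 4 were called higher, 2 lower and 6 were not called. MNDA, a nuclear protein of myeloid cells, rose from 217 ± 173 to 7266 ± 5554 (log2 fold change 5.18, SE 0.94, limma adjusted p = 0.0061). ITGAM, the integrin CD11b, which granulocytes also carry, had 72.4, 62.1, 72.0 and 112 in control and 406, 413, 868 and 1152 in IRF8 KO, with no overlap (log2 fold change 3.03, SE 0.38, adjusted p = 9.8e-04). CCR2, a chemokine receptor of classical monocytes, fell from 2905 ± 1942 to 427 ± 257 (-2.64, SE 0.66, adjusted p = 0.024), a call lost, with an adjusted p of up to 0.070, without control replicate 1 or 3 or KO replicate 3 or 4. CD36 lost its call too, with up to 0.072, without control replicate 1 or 3 or KO replicate 2 or 4. VNN2 fell from 308 ± 175 to 16.8 ± 13.6 (-4.26, SE 0.65, adjusted p = 0.0027). CD14, which marks mature monocytes, was low and did not exceed 25.6 normalized counts.

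Of a list of 7 eosinophil surface and factor genes, which holds EPX, 4 were tested, of which 2 were called higher and 0 lower, where 8.65% and 9.56% of all genes were. ADGRE1 rose from 18.4 ± 8.04 to 119 ± 27.5 (log2 fold change 2.702, SE 0.36, adjusted p = 0.0013), and the lipoxygenase ALOX15 from 11.5 ± 5.07 to 49.0 ± 21.0 (2.01, SE 0.45, adjusted p = 0.016). CCR3, the eotaxin receptor, was not called (-0.55, SE 0.64, adjusted p = 0.62), and neither was EPX. SIGLEC8 had 57 reads over the control and 12 over the KO libraries, and was too low to test.

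Of 6 basophil and mast cell genes, 4 were tested, of which 1 was called higher and 0 lower. Over all genes tested, the shares were 8.65% and 9.56%. The gene called higher was CPA3, the mast cell carboxypeptidase, which passed the minimum through the KO group alone. CPA3 was 0 in every control library and had 6.39, 28.7, 27.1 and 53.1 in the KO libraries. FCER1A, a chain of the high-affinity receptor for IgE, had 45 reads over the control and 0 over the KO libraries, and was too low to test. The tryptase gene TPSAB1 had 468 and 124 reads and was not called (-1.77, SE 1.03, adjusted p = 0.28).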
